A study of Mus musculus with 5 samples.

Results

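At 2 h after injection, 73 genes had their highest value on the array of mice that received ovalbumin together with alum, by at least 2-fold over every other array of the study. They were drawn from 13664 genes whose brightest probe the scanner marked as well above background on all 5 arrays. The value of a gene is its level: the log2 processed signal of its brightest probe minus the log2 of that array's 75th percentile, so that 0 is the 75th percentile and a difference of 1 is a 2-fold difference in signal. A gene's margin is its level on the OVA+Alum array minus the highest level among the other 4 arrays, and a member needed a margin of 1 or more. In all, 75 genes met that margin, 0.549% of those examined. Hmox1 (margin 1.01) and Upk3b (1.05) were among several stress, lining and matrix genes set aside by name, which left 73. Of these, 72 code for proteins and 1, Gm8884, is a long noncoding RNA. The members were chosen by these levels on all 5 arrays, so what follows describes these 5 arrays and tests nothing.

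The RNA came from peritoneal lavage cells, and the mice were female and of the BALB/c strain. The 5 injections into the cavity were PBS, 50 µg AEPS, 25 µg OVA, 25 µg OVA with 50 µg AEPS, and 25 µg OVA with 200 µg alum. AEPS is a polysaccharide from the roots of the climbing plant Actinidia eriantha that is studied as a vaccine adjuvant, OVA is the model antigen ovalbumin, and alum is an aluminium salt long used as an adjuvant. Each injection is represented by 1 single-colour array, and the labels do not say whether cells of several mice were pooled. There is therefore no replicate, no spread between animals and no p-value for any difference given here. The only error available is technical: the scanner's error for each spot, which gave a median standard error of 0.20 for the margins of the members. PBS is the only group without antigen and adjuvant, and alum was given only with OVA, so a difference of the OVA+Alum array from PBS joins both agents.

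Alum particles injected into a body cavity are known to damage and stimulate resident cells, which release cytokines and danger signals and draw neutrophils and monocytes into the cavity. Stimulated resident macrophages of the cavity can adhere and become hard to wash out, and the lining of the cavity is a sheet of mesothelial cells over connective tissue. Immediate early genes such as Fos and Egr2 code for transcription factors that cells switch on within minutes of a stimulus, before new protein is made. A lavage is a mixture, so for every gene here, fewer cells of a type and less RNA per cell cannot be told apart.

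Margins of the 73 members ran from 1.0003 to 1.89, with a median of 1.12, against a median of -0.27 for all 13664 genes. Each margin was at least 3.31 times its technical standard error. The rule itself brings this about, since it asked for a margin of 1 and no such error exceeded 0.324. The threshold cuts through a continuous range: just inside it lay Egr2 (1.01), Icos (1.01), Ano1 (1.01), Khdc3 (1.002) and Samd11 (1.0003), and just outside it Grina (0.999), Lonrf1 (0.996), Adgrd1 (0.993), Map3k9 (0.986) and Smad7 (0.981). A gene whose probe was not above background on another array could not become a member. Where 5 levels follow a gene, they stand in the order PBS, AEPS, OVA, OVA+AEPS and OVA+Alum. Other arrays had sets of the same kind. Under the same margin, 89 genes (0.651%) were highest on PBS, 43 (0.315%) on AEPS, 32 (0.234%) on OVA and 37 (0.271%) on OVA+AEPS. Among named genes, the set highest on OVA+Alum was thus smaller than that of PBS and larger than those of the other 3 arrays. Among 11925 probes without a gene name it was the smallest, with 22 probes against 51 to 60 on each other array. In the opposite direction, 176 genes (1.29%) lay 1 or more below every other array on PBS, 2 (0.0146%) on AEPS, 9 (0.0659%) on OVA, 3 (0.022%) on OVA+AEPS, and 61 (0.446%) on OVA+Alum. The balance of 75 above and 61 below became 105 and 38 with arrays scaled to their median, and 52 and 65 with arrays scaled to spike-in controls.

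**Figure D1:**
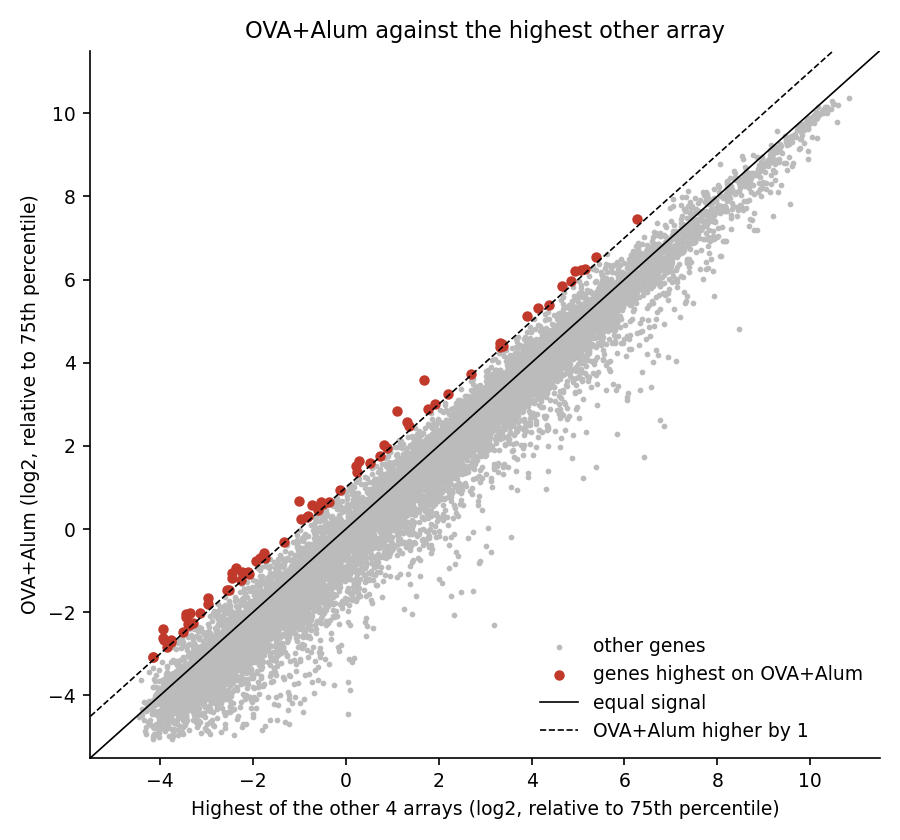
Level on the OVA+Alum array (y axis, log2 relative to the array's 75th percentile) against the highest level among the other 4 arrays (x axis, same scale) for the 13664 genes, with the 73 members in red, a solid line at equal signal and a dashed line at a margin of 1. Members lie along the upper edge of the cloud at every brightness, up to 1.89 above the solid line.

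**Figure D2:**
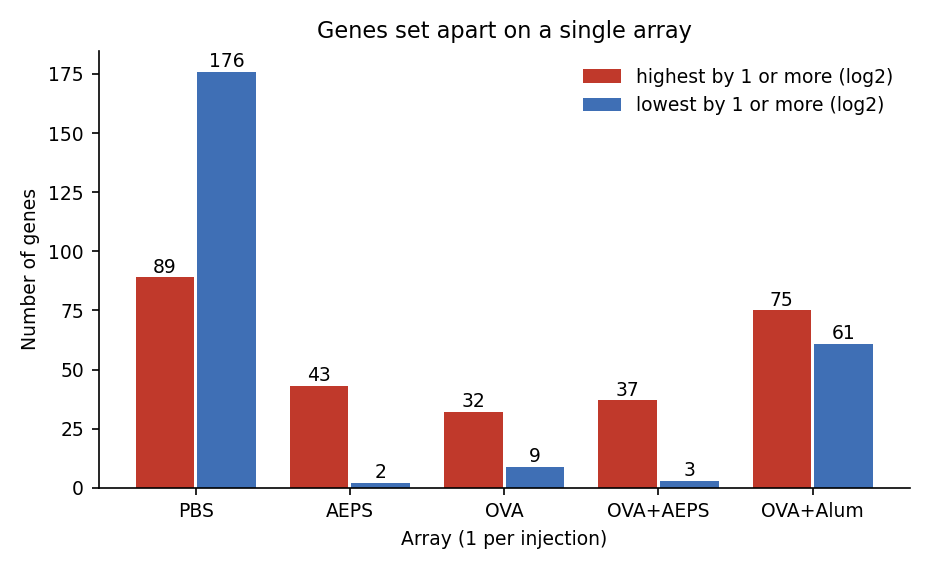
Number of genes (y axis) that were 1 or more (log2) above, or 1 or more below, every other array, for each of the 5 arrays (x axis). OVA+Alum had 75 genes above and 61 below, and PBS had 89 and 176.

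Secreted signals and their relatives on the cell surface held the widest margin of the set. Osm, which codes for oncostatin M, an interleukin 6 family cytokine of neutrophils and macrophages, had levels of 1.67 on the PBS array, 1.16 on AEPS, 1.69 on OVA, 0.75 on OVA+AEPS and 3.58 on OVA+Alum. It stood 3.71-fold above the next array, OVA (margin 1.89, technical SE 0.20), and 7.14-fold above OVA+AEPS, where it was lowest. Tnfsf14, the TNF superfamily ligand LIGHT, stood at 2.37, 2.57, 3.32, 1.81 and 4.47, with OVA+Alum 2.22-fold above OVA. Both cytokines had OVA+Alum highest, OVA second and OVA+AEPS lowest. These were the only members among the 23 inflammatory cytokine genes measured. As a list those 23 did not share the pattern: 6 were highest on OVA+Alum (26.1%, against 24.5% of all genes), and the median margin was -1.36.

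Further secreted members differed from this order. Crispld2, a secreted protein known to bind bacterial lipopolysaccharide, had levels of 3.47, 4.94, 4.74, 4.62 and 6.19, so that the arrays with any injected agent lay above PBS by more than 1 and OVA+Alum above them by 1.26. A second probe of Crispld2 gave a margin of 1.62. Igfbp5, which binds insulin-like growth factors and is common in stromal and lining cells, was at -1.17, -0.48, -1.47, -0.82 and 0.61, lowest on OVA rather than next to it. Sema4f, a membrane-bound semaphorin, was dim everywhere, from -3.57 on OVA+AEPS to -2.31 on OVA+Alum.

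**Figure D3:**
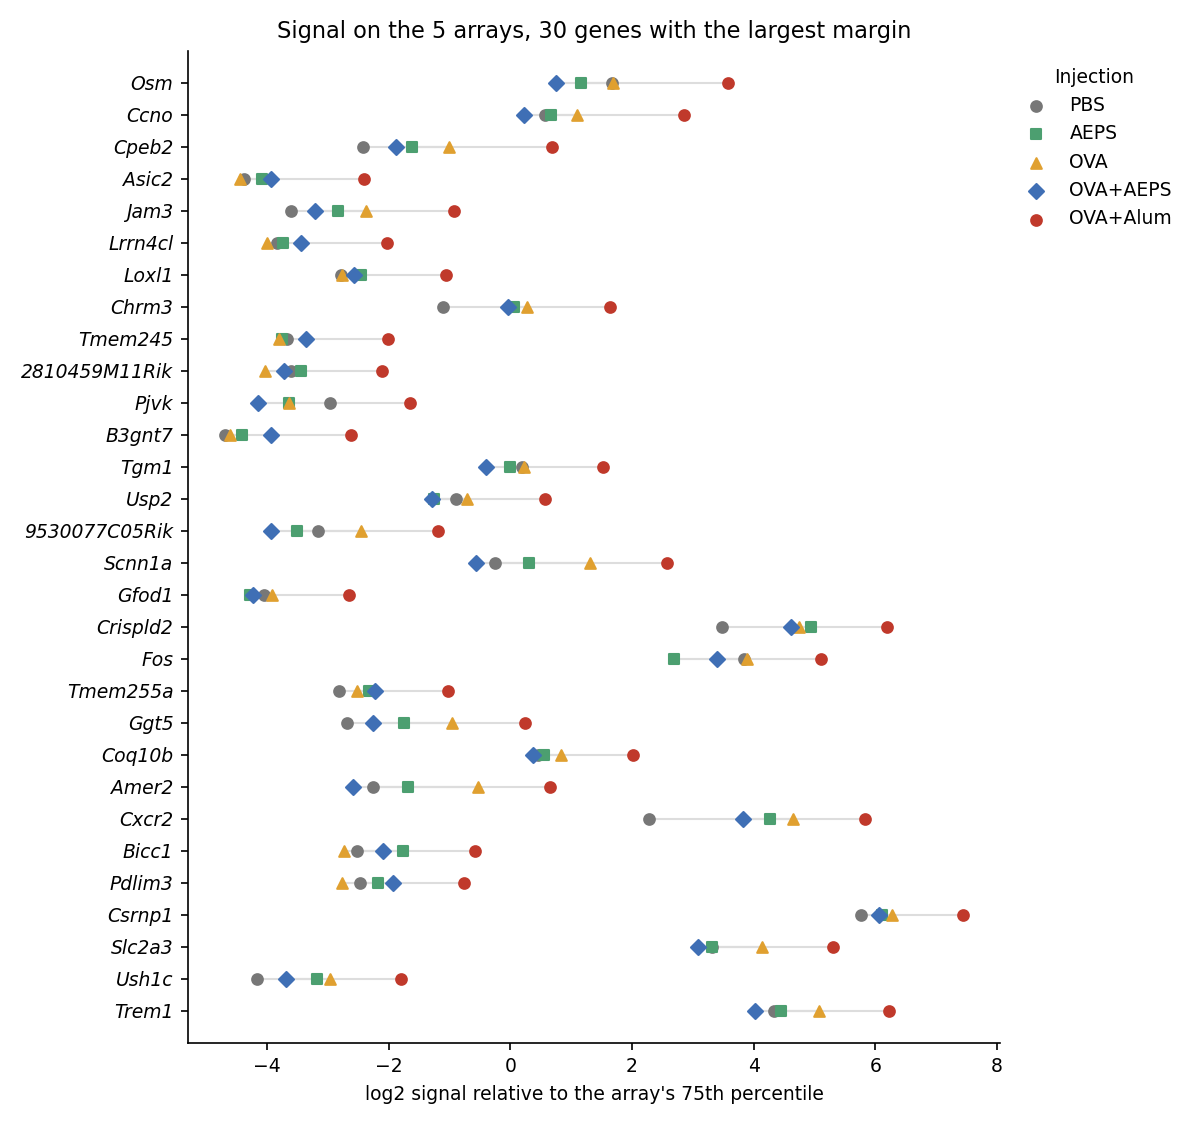
Levels (x axis, log2 relative to each array's 75th percentile) of the 30 members with the widest margins (y axis, 1 gene per line) on the 5 arrays, 1 point per array and no replicates. In every line the OVA+Alum point is farthest right, and for Osm, Ccno, Cpeb2 and Csrnp1 the OVA point is the next.

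Receptors and an adaptor of myeloid cells were among the members with bright probes. Cxcr2, the receptor through which neutrophils follow CXC chemokines, measured 2.28 on the PBS array, 4.27 on AEPS, 4.65 on OVA, 3.83 on OVA+AEPS and 5.83 on OVA+Alum. Each of the 4 arrays with an agent read above PBS, by 1.55 on OVA+AEPS, the least, and 3.55 on OVA+Alum, the most. Trem1, an amplifier of inflammatory signalling on neutrophils and monocytes, was at 4.33, 4.45, 5.07, 4.02 and 6.23. Pram1, an adaptor protein of granulocytes, was at 1.61, 2.40, 3.37, 1.97 and 4.44. In both, OVA+Alum was highest and OVA second, and the AEPS array lay less than 1 above PBS.

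Cxcr2 and Trem1 belong to a list of 21 measured neutrophil markers, of which 13 (61.9%) were highest on OVA+Alum, against 24.5% of all genes. The median margin of the list was only 0.03, and it turned negative, to -0.22 with 8 markers highest, when arrays were scaled to spike-in controls, and to -0.02 with the percentile taken over probes well above background. Mpo, Mmp9, Ltf and Mmp8 came closest to the threshold without reaching it, with margins of 0.95, 0.85, 0.60 and 0.56. All 21 markers were above background on every array. Their summed signal, in multiples of each array's 75th percentile, was 1942 on PBS, 3978 on AEPS, 3370 on OVA, 3613 on OVA+AEPS and 3449 on OVA+Alum. By that sum the OVA+Alum array did not exceed the AEPS arrays. Markers of large peritoneal macrophages went the other way: none of 20 was highest on OVA+Alum, 13 were lower there than on PBS by 1 or more (3.73% of all genes were), and their summed signal was 1751 against 2740 to 3086 on the other arrays. Both lists thus differ between the arrays, and their part in the members' levels was not tested.

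Other surface members had dimmer probes. Chrm3, the M3 muscarinic acetylcholine receptor, was at -1.11, 0.06, 0.28, -0.03 and 1.64, with PBS more than 1 below each of the other arrays. Jam3, a junctional adhesion molecule, was at -3.60, -2.83, -2.37, -3.21 and -0.93. Kiss1r, the kisspeptin receptor, was at -3.65, -2.53, -2.25, -2.71 and -1.21. These 3 genes shared the order of Cxcr2, with PBS lowest and OVA second. Icos, a co-stimulatory receptor of activated T cells, had levels close together on the other arrays (0.44, 0.74, 0.69, 0.58 and 1.75) and just passed the threshold, while its second probe had a margin of 0.46. Tnfrsf10b, a death receptor for TRAIL, the adhesion protein Cxadr, the receptor phosphatase Ptprg and Vipr2, a receptor for vasoactive intestinal peptide, had margins of 1.16, 1.05, 1.07 and 1.06. All 4 stayed below the 75th percentile on every array.

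Among nuclear proteins, products of the immediate early response had the brightest probes. Fos, a subunit of the transcription factor AP-1, had levels of 3.84 on the PBS array, 2.69 on AEPS, 3.89 on OVA, 3.40 on OVA+AEPS and 5.12 on OVA+Alum. Its probe is spotted 10 times on each array, so its margin of 1.22 carried the smallest technical SE of the set, 0.07. AEPS alone read lowest, 5.38-fold below OVA+Alum, and PBS and OVA were nearly level. Egr2, a zinc finger transcription factor, was at 3.60, 3.08, 4.39, 3.29 and 5.40, again lowest on AEPS. Csrnp1, a nuclear protein with a cysteine- and serine-rich domain, was at 5.77, 6.11, 6.28, 6.07 and 7.45.

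The immediate early list leaned the same way well beyond these members. Of its 29 measured genes, 18 (62.1%) were highest on OVA+Alum, against 24.5% of all genes. The median margin was 0.28, although only Fos and Egr2 reached 1. Fosl2 (0.97), Egr1 (0.92), Btg2 (0.92) and Junb (0.85) fell short of the threshold. Against PBS, 13 of the 29 were 1 or more higher on OVA+Alum, against 5.18% of all genes, and 2 were 1 or more lower, against 3.73%.

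Other transcriptional regulators had dimmer probes. Klf5, a Krüppel-like factor of epithelia and smooth muscle, was at -1.83, -0.84, -1.01, -1.04 and 0.30, with PBS the lowest. Ascl2, a basic helix-loop-helix factor, was at -1.20, -1.65, -0.59, -1.72 and 0.51, and there both AEPS arrays were lowest. Creb3l3, a membrane-bound factor best known from liver, also had both AEPS arrays lowest, at -3.63, -4.58, -3.40, -4.39 and -2.27. Hdac4, a class II histone deacetylase, was at 0.78, 1.01, 1.37, 1.099 and 2.47. H2bc21, a histone H2B gene, was at 0.82, 1.71, 1.76, 1.29 and 2.89. In Hdac4 and H2bc21, PBS was lowest and OVA second. Samd11, the member with the narrowest margin, ranged from -4.24 on OVA+AEPS to -2.84 on OVA+Alum.

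Since Fos is a subunit of AP-1, the promoters of the members were searched for its site TGANTCA, on both strands, from 250 bases before to 50 bases after each transcription start (RefSeq, GRCm38.p6). Promoter sequences were at hand for 54 of the 73 members. A gene with several starts counted once. The site occurred in 5 members (9.26%), against 6.82% of the 10958 examined genes with a promoter sequence and 8.97% of all 27025 genes with one, so its share among members lay near the background. The 5 genes hold 6 matches, which are printed because Fos is itself a member, 5′ to 3′ on the strand of the gene with 11 bases on each side and the match in capitals.
Adam19 (chr11:46055842-46055870, plus strand): tgtccttcaccTGAGTCAgcgatgctccc
Creb3l3 (chr10:81098910-81098938, minus strand): ccggtctgctgTGACTCAgaaggaggtga
Csrnp1 (chr9:119983108-119983136, minus strand): gcgaggcttggTGAGTCAcggaccccggg
Csrnp1 (chr9:119983020-119983048, minus strand): ggccactgccgTGAGTCAccggggcgcag
Cybrd1 (chr2:71117808-71117836, plus strand): tggtgaggaacTGACTCAcactcaaggag
Tnfsf14 (chr17:57194324-57194352, minus strand): tccatcccaccTGAGTCAcattttctgga
Csrnp1 is the only one of the 5 with more than 1 match, and Tnfsf14 and Adam19 are the only others that are bright on all 5 arrays. A match describes letters in a window and not binding. Further motifs were also found at shares of the same order as in the genes examined: the antioxidant element TGACNNNGC in 12 members (22.2%, against 16.5%), the hypoxia element ACGTG in 19 (35.2%, against 28.0%), the NF-kB-type site GGGNNTTCC in 7 (12.96%, against 8.26%), the E-box CACGTG in 8 (14.8%, against 11.3%), the cyclic AMP element TGACGTCA in 2 (3.70%, against 3.30%) and the heat shock element GAANNTTC in 3 (5.56%, against 7.21%). The E-box contains the hypoxia element, so those counts overlap.

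Genes of sugar and lipid metabolism were also represented by bright probes. Slc2a3, the glucose transporter GLUT3 of leukocytes, measured 3.31 on the PBS array, 3.31 on AEPS, 4.14 on OVA, 3.08 on OVA+AEPS and 5.30 on OVA+Alum. Ppp1r3d, which targets protein phosphatase 1 to glycogen, was at 3.36, 4.48, 5.15, 4.07 and 6.25. G0s2, an inhibitor of the triglyceride lipase ATGL, was at 4.36, 4.64, 5.38, 4.05 and 6.54. For all 3, OVA was second and the AEPS array lay above OVA+AEPS. Slc2a3 was the only member among 26 measured glycolysis and hypoxia genes. Of these, 11 (42.3%) were highest on OVA+Alum, against 24.5% of all genes, with a median margin of -0.20.

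In Ppp1r3d the difference with AEPS reached 1 in both directions, up without the antigen and down with it. AEPS alone read 1.13 above PBS, while OVA+AEPS read 1.09 below OVA. Abhd15, a hydrolase-fold protein of adipocytes, showed the widest gap between OVA and both AEPS arrays: its levels were -1.84, -2.83, -0.60, -2.99 and 0.45, so that OVA+Alum stood 10.8-fold above OVA+AEPS and 9.74-fold above AEPS but only 2.07-fold above OVA.

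Enzymes of glycans and redox chemistry made up most of the rest of this group. B4galt3, a galactosyltransferase, was bright at 4.14, 4.79, 4.85, 4.57 and 5.96, and a second probe gave a margin of 1.09. Coq10b, which binds coenzyme Q in mitochondria, was at 0.46, 0.55, 0.83, 0.37 and 2.02, with a margin of 1.20 from its second probe. Ggt5, an ectoenzyme that acts on glutathione and leukotriene C4, was at -2.68, -1.74, -0.95, -2.26 and 0.24, spread widely over the other arrays. In these 3 genes OVA was second, and OVA+AEPS or PBS was lowest. B3gnt7, an N-acetylglucosaminyltransferase, was at -4.69, -4.42, -4.61, -3.94 and -2.63. Gfod1 and Cybrd1, a ferric reductase, were dim, with margins of 1.26 and 1.07. The members also included 3 ion channel genes. Scnn1a, the alpha subunit of the epithelial sodium channel, was at -0.25, 0.31, 1.31, -0.57 and 2.58, where OVA+AEPS read lowest. Asic2, an acid-sensing sodium channel, was at -4.39, -4.08, -4.45, -3.94 and -2.41, and Ano1, a calcium-activated chloride channel, at -1.16, -0.61, -0.82, -0.35 and 0.66. In both of these OVA+AEPS was second.

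A further group consists of genes of lining, matrix and cytoskeleton, which are not typical of leukocytes. Loxl1, a lysyl oxidase that crosslinks elastin, measured -2.78 on the PBS array, -2.45 on AEPS, -2.77 on OVA, -2.58 on OVA+AEPS and -1.07 on OVA+Alum. Lrrn4cl was at -3.83, -3.75, -4.00, -3.45 and -2.04. Krt7, a keratin of simple epithelia and mesothelium, was at -3.50, -3.29, -3.53, -3.42 and -2.25. On the other 4 arrays the levels of each of these 3 lay within 0.55 of each other, and OVA was not second in any of them. Pdlim3, a protein of the actin cytoskeleton, was at -2.48, -2.18, -2.78, -1.93 and -0.76, and Bicc1, an RNA-binding protein of epithelia, was at -2.52, -1.76, -2.74, -2.09 and -0.58. OVA was the lowest array for both, as for Igfbp5. The second probe of Loxl1 did not follow the first: it read -4.39 on OVA, -2.79 on OVA+Alum and -0.29 on OVA+AEPS, where it was highest.

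Krt7 and Igfbp5 are on a list of 24 measured mesothelial genes, of which 15 (62.5%) were highest on OVA+Alum, against 24.5% of all genes. The median margin of that list was 0.42 (0.17 when scaled to spike-in controls). On a fibroblast and stromal list, 12 of 16 (75%) were highest on OVA+Alum, with a median margin of 0.41, but none was a member. Collagens were excluded by the choice of members, which removed no gene here, since the largest margin of a collagen was 0.91 (Col6a1). The summed signal of the fibroblast markers was 106 to 133 on the other arrays and 182 on OVA+Alum, while that of the mesothelial markers was 1484 to 1995 on the others and 1218 on OVA+Alum. Such a sum follows its brightest probes. Among defining markers, Bnc1, Calb2 and Pkhd1l1 of the mesothelial list and Pdgfra, Dpt and Tcf21 of the fibroblast list were not well above background on any array. The part of lining and stromal cells in the levels of these members was not tested.

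Other members with structural roles lay at both ends of the brightness range. Adam19, a membrane metalloproteinase, was bright at 2.90, 2.71, 3.31, 2.71 and 4.38. It was the only member of a matrix protease list of 17 genes, 10 of them (58.8%) highest on OVA+Alum, against 24.5% of all genes. Tgm1, a transglutaminase of the skin barrier, was at 0.19, -0.01, 0.22, -0.39 and 1.53. Reck, an inhibitor of matrix metalloproteinases, was at -4.33, -3.91, -3.50, -4.26 and -2.47. By the brightest probes of these 3 genes OVA was second, as in Osm. The second probe of Reck had a margin of 0.21, and there OVA was lowest, at -4.43. Acta1, the actin of skeletal muscle, was at -3.06, -2.10, -2.09, -2.44 and -1.08, with PBS lowest. No marker beside Acta1 among the 6 measured on a skeletal muscle list was a member, and Myh1, Myh2, Myh4 and Ttn were above background on no array. Gas2l3, which links actin filaments to microtubules, was at -2.56, -2.70, -3.38, -3.51 and -1.46, and PBS was second.

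Ccno and Cpeb2 had the widest margins after Osm. Ccno, cyclin O, known for the making of centrioles in multiciliated cells, measured 0.56 on the PBS array, 0.66 on AEPS, 1.098 on OVA, 0.23 on OVA+AEPS and 2.85 on OVA+Alum, which is 3.37-fold above OVA. Cpeb2, which binds cytoplasmic polyadenylation elements of messenger RNAs, was at -2.43, -1.61, -1.01, -1.89 and 0.69, 3.23-fold above OVA and 8.67-fold above PBS. Both had OVA second and differed in the lowest array, OVA+AEPS for Ccno and PBS for Cpeb2. With Osm and Asic2, these were the 4 members whose margin reached 1.5. Asic2 was dim, at -4.45 to -3.94 on the other 4 arrays, and its lowest margin under alternative processing was 0.64. For Osm, Ccno and Cpeb2 the lowest was 1.80, 1.68 and 1.47.

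Several kinase, GTPase and Wnt signalling proteins had OVA second, as in Osm, and differed in which array was lowest. Aatk, a tyrosine kinase first found in apoptotic myeloid cells, was at 1.04, -0.09, 1.92, -0.03 and 3.01, with both AEPS arrays lowest. Amer2, a Wnt pathway regulator that binds APC, was at -2.26, -1.69, -0.54, -2.59 and 0.66. Frat2, which binds the kinase GSK3, was at -0.51, -0.81, -0.12, -0.48 and 0.94, and a second probe had a margin of 0.96. Usp2, a deubiquitinase, was at -0.90, -1.26, -0.72, -1.29 and 0.58. In these 4 genes OVA was second and 1 of the AEPS arrays was lowest. Tbc1d2, a GTPase-activating protein for Rab7, was at 0.73, 0.25, 0.89, 0.29 and 1.96, with a margin of 0.90 from its second probe. Gcc1, a protein of the Golgi, was at 1.94, 2.24, 2.70, 2.16 and 3.73, with 1.36 from its second probe. Both probes of these 2 genes were thus highest on OVA+Alum. Nlrx1, a mitochondrial NOD-like receptor, was at 0.48, 0.18, 0.53, -0.10 and 1.58, but its second probe had a margin of -0.36. Mcf2l, a guanine nucleotide exchange factor, was at -1.69, -1.08, -0.81, -1.45 and 0.30, and its dim second probe had a margin of -0.12.

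The remaining members were mostly dim. Pjvk, a gasdermin family protein needed for hearing, was at -2.97, -3.64, -3.64, -4.15 and -1.65, and with Gas2l3 it was 1 of only 2 members with PBS second. Ush1c, the scaffold protein harmonin, was at -4.16, -3.18, -2.96, -3.69 and -1.80, and Spag1, which helps assemble ciliary dyneins, was at -3.64, -3.43, -3.38, -2.52 and -1.46. Rab6b, a Golgi GTPase, was at -3.42, -3.13, -3.81, -3.61 and -2.02. Khdc3, known from the oocyte, was at -1.66, -1.70, -1.32, -1.57 and -0.32. The second array varied among these genes: it was OVA for Ush1c and Khdc3, OVA+AEPS for Spag1 and AEPS for Rab6b. The widest margins among members of less known function were those of Tmem245 (1.34), 2810459M11Rik (1.32), 9530077C05Rik (1.27) and Tmem255a (1.21), and those of Ccdc189 (1.097) and Gm6583 (1.06) were narrower. Fnip2, a partner of folliculin, Fbxo31, a ubiquitin ligase subunit, and the noncoding Gm8884 were bright or near the 75th percentile, with margins of 1.12, 1.01 and 1.05.

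The rule did not name which array came second, which was most often OVA. It did ask for OVA+Alum 1 or more above each of the other 4 arrays. The shares over all genes are therefore not a like background. OVA was the highest of the other 4 arrays for 47 of 73 members (64.4%), against 18.2% of all genes, while PBS was the highest for 2 members (2.74%), against 47.3% of all genes. AEPS was second for 13 members and OVA+AEPS for 11. Of 510 genes with a margin from 0.5 to below 1, OVA was second for 50.6%. The same margin picked these genes at a lower cut, so they are no separate evidence. The share with OVA second depends on scaling. With arrays scaled to 8 spike-in probes, OVA was second for 29 members, against 8.81% of all genes, and under the other alternatives for 41 to 49.

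**Figure D4:**
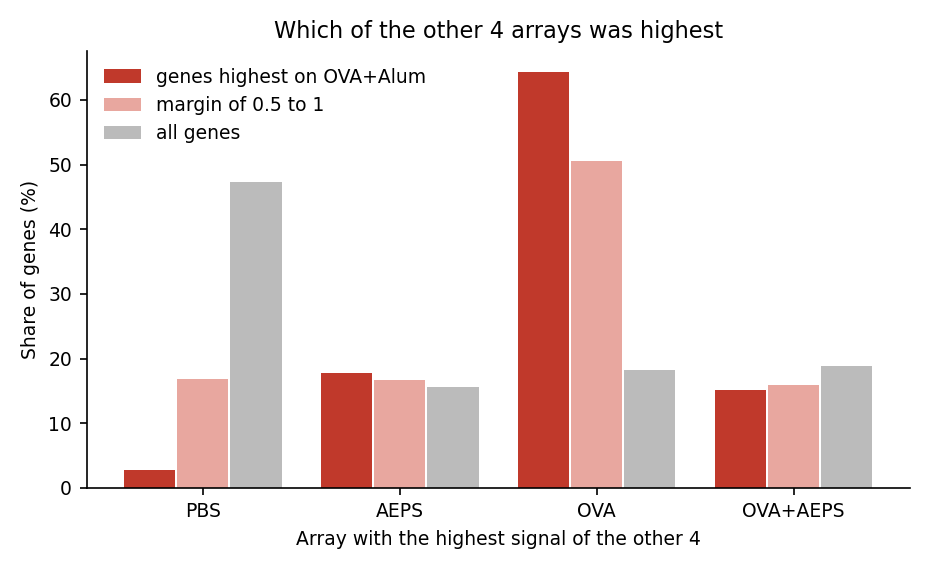
Share (y axis, percent) of the 73 members, of the 510 genes with a margin from 0.5 to below 1, and of all 13664 genes, whose highest level among the 4 arrays other than OVA+Alum lay on each array (x axis). OVA held 64.4% of members and 18.2% of all genes, and PBS held 2.74% and 47.3%.

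The 47 members with OVA second and the 24 with an AEPS array second can be described apart. The 47 included Osm, Tnfsf14, Cxcr2, Trem1, Fos, Egr2, Csrnp1, Slc2a3 and G0s2. In these 47, the median of OVA minus PBS was 0.74 and that of OVA+AEPS minus OVA was -0.63. The split itself fixes both signs, since OVA is the highest of the 4 arrays in each of the 47. It also shapes the contrast with the other 24. The 24 included Igfbp5, Krt7, Loxl1, Lrrn4cl, Pdlim3, Bicc1 and Klf5, with medians of 0.07 and 0.24 for the same differences. Of 23 members at or above the 75th percentile on all 5 arrays, 20 had OVA second, and of 33 below it on all 5, 13 did. Over all genes at the same brightness, OVA was the highest of the 4 arrays for 18.1% and 17.3%. The exceptions among the bright ones were Crispld2, Gm8884 and Icos. AEPS exceeded OVA there by only 0.196, 0.0003 and 0.05, each less than the technical SE of 0.204. Some of the 47 are as close: OVA led PBS, the next array, by 0.02 in Osm and 0.03 in Tgm1. Which array was second is thus not settled for such genes. These differences share arrays with the margin that chose the members, and are given as a description.

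Between the 4 arrays without alum, the members were not level. OVA read 1 or more above PBS for 16 members (21.9%), against 5.47% of all genes, and 1 or more below for none, against 2.15%. The widest of these differences were those of Cxcr2 (2.37), Ppp1r3d (1.80), Pram1 (1.76), Ggt5 (1.73) and Amer2 (1.72). Adding AEPS to OVA went with lower readings in a part of the members. OVA+AEPS read 1 or more below OVA for 14 members (19.2%), against 2.17% of all genes, and 1 or more above for none, against 2.51%. The median of this difference was -0.60 for the 23 members at or above the 75th percentile on all 5 arrays. It was -0.004 for the 33 below it on all 5. Here too, all genes are not a like background. Abhd15 (-2.39), Amer2 (-2.05), Aatk (-1.95), Scnn1a (-1.88) and Tnfsf14 (-1.51) lay lowest against OVA, and Spag1 (0.87) and Pdlim3 (0.85) highest. AEPS alone read 1 or more above PBS for 6 members (8.22%), near the 7.55% of all genes, and 1 or more below for 2 (2.74%), against 4.75%. Cxcr2 (1.99) and Crispld2 (1.47) were at the upper end, and the pair below were Fos (-1.15) and Aatk (-1.13). OVA+AEPS and AEPS lay within 1 of each other for all 73 members, where 0.6% and 0.681% of all genes were 1 or more higher and lower. The OVA array enters 2 of these comparisons and PBS enters 2, so they are not independent of each other. Scaling to spike-in controls moved the median of AEPS minus PBS over all genes from -0.15 to 0.50. Members 1 or more above PBS were then 27 with OVA and 26 with AEPS, against 9.14% and 21.2% of all genes. OVA+AEPS lay 1 or more below OVA for 9 members, against 1.39% of all genes, and above it for 2, against 3.67%. OVA+AEPS then lay 1 or more below AEPS for 3 members, against 1.14% of all genes. With the median over a gene's probes, OVA+AEPS lay 1 or more above AEPS for 2 members, against 0.82% of all genes. In log2 units, the median member stood 1.80 above PBS, 1.49 above AEPS, 1.19 above OVA and 1.59 above OVA+AEPS on the OVA+Alum array, against medians of -0.07, 0.04, 0.05 and 0.02 for all genes.

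Brightness, further probes and position on the slide bear on the margins as technical measures. Brightness is in part a property of each probe and does not rank genes by expression. In order of mean level on the other 4 arrays, with the genes examined split into 4 equal bins, 37 members fell in the dimmest, 18 in the next, 8 in the one above it and 10 in the brightest. The rule was met by 0.738% of genes below the 75th percentile on all 5 arrays and by 0.306% of those at or above it. For 11 members a further probe was also above background on all 5 arrays. Of these, 8 were highest on OVA+Alum, as were 23.1% of the further probes of all genes, and 4 had a margin of 1 or more (Crispld2, Gcc1, Coq10b and B4galt3), against 0.353%. The 3 that were not highest there belonged to Loxl1, Nlrx1 and Mcf2l. Members were spread evenly over the array surface, with 20, 19, 18 and 16 in 4 equal areas. All 5 arrays lay on 1 slide, and PBS was alone in the first row, so slide row and the PBS injection cannot be told apart. On the 5 arrays, 56.7% to 60% of probes were well above background and no spot was saturated. The 75th percentile (log2) ran from 8.18 on PBS to 8.54 on OVA, and outlier spots from 134 on PBS to 219 on OVA+Alum.

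Most of the fixed lists contributed nothing to the set. Of 42 lists of pathways and cell type markers, 34 held no member and 61 of the 73 members were in no list. The lists cover a small part of the genes examined, and the share of all genes in a list was not counted. The rule was met by 0.549% of all genes, so most lists of this size would hold no member at that share. None of 39 measured interferon-stimulated genes and none of 29 chemokines was highest on OVA+Alum. The median margins of those lists were -1.90 and -0.94. A negative margin here does not mean a level below PBS. The median interferon-stimulated gene stood above PBS by 2.57 on AEPS, 2.47 on OVA+AEPS and 0.69 on OVA+Alum. On OVA+Alum, 14 of the 39 were 1 or more above PBS, against 5.18% of all genes, and 0 were 1 or more below, against 3.73%. For chemokines these medians were 0.82, 0.76 and 0.28, with 6 of 29 above and 4 below. Neither the 22 measured target genes of the oxidative stress factor NRF2 nor the 13 heat shock genes held a member. Of these, 5 (22.7%) and 4 (30.8%) were highest on OVA+Alum, against 24.5% of all genes, with medians of -0.22 and -0.25. Hmox1, a known NRF2 target that is on none of the lists, met the margin but was set aside by name. Only 4 lists held as many as 2 members: immediate early genes, inflammatory cytokines, neutrophil markers and mesothelial genes.

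**Figure D5:**
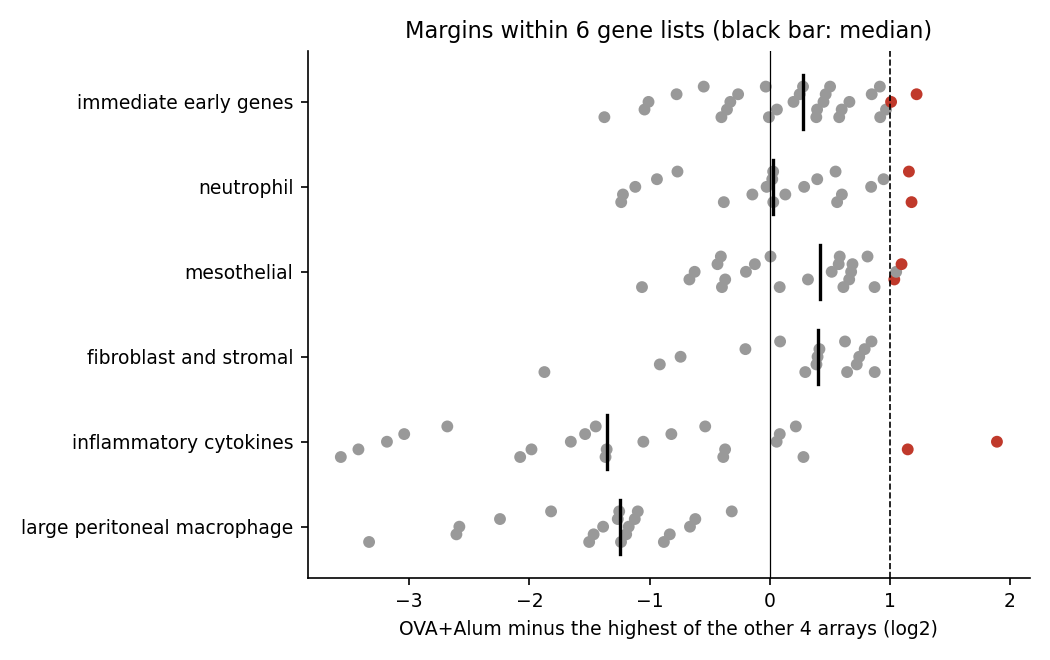
Margins (x axis, log2) of the genes measured in 6 lists (y axis), 1 point per gene, with members in red, a black bar at each list's median, a solid line at 0 and a dashed line at 1. The grey mesothelial point beyond 1 is Upk3b. Medians run from 0.42 for the mesothelial list to -1.36 for inflammatory cytokines, whose red points are Osm and Tnfsf14.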

How the data were processed

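Total RNA of peritoneal lavage cells was labelled with Cy3 and read on 5 arrays, 1 per injection. The scanner output deposited by the authors consists of intensity on a linear scale, made with Agilent Feature Extraction 10.7.1.1 per the file headers, with background already subtracted and no step between arrays. Other values in the deposited files are the scanner's flags of 0 or 1 per spot. A series table deposited by the authors gives log2 values, which, by their match to the scanner values, had been quantile-normalized between arrays. It served as an alternative.

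Control and outlier spots were left out (3671 control spots per array and 134 to 219 outlier spots), spots of a probe were averaged, and levels were formed as log2 processed signal minus each array's 75th percentile. The number of arrays limits the precision. Of 55681 probes, 26582 carried 1 RefSeq gene symbol (GRCm38.p6) through their transcript accession and 29099 had none. The files name no genome build, and coordinates are given only for RefSeq promoters. The selection was also run on simulated arrays with known differences, which otherwise varied only by the scanner's technical error. They hold no variation between animals, so that run cannot show how the rule copes with it. With 1 array per group no test between groups was run. Alternatives were other scalings, normexp background correction (offset 50, limma 3.58.1 in R 4.3.3), the median over a gene's probes, other filters and margins, and each array left out. The rest was computed with Python 3.11.15, numpy 2.4.6, pandas 2.3.3 and matplotlib 3.10.9.

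The members, lists and comparisons were chosen with earlier results of these data known. The rule for named genes took the 30 widest margins, members in a list, genes nearest the threshold, the largest differences between other arrays and members with further probes, 57 members in all, of which 1 is not reported here. The other 16 are named to complete the account, and their values were chosen for print after they were seen, as were the groups by role.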

Additional observations from a re-analysis of the deposited data

Results flagged for a closer look

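Ppp1r3d, which targets protein phosphatase 1 to glycogen, was the only member with differences of 1 or more in opposite directions between AEPS without and with the antigen. Its level on the AEPS array was 1.13 above PBS, while OVA+AEPS was 1.09 below OVA. The difference between these differences was -2.21 (log2), and with 1 array per injection it was not tested. Such opposite differences of 1 or more were found in 22 of the 13664 genes.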

How the results depend on the processing

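The number of genes that met the rule depended on the filter, the margin and the background correction. It was 33 with normexp and quantile normalization, 27 of them members, 140 when a probe had to be above background on OVA+Alum only, 169 with no filter, 4 at a margin of 1.5 and 573 at 0.5. Other scalings, the authors' table, the median over a gene's probes and a limit of 3 technical SE gave 50 to 102. Leaving out 1 array gave 85 to 188, highest without OVA. All 73 members kept a margin above 0 under the 6 alternatives of scaling, background and source, and 23 stayed at 1 or more. With the median over a gene's probes, the margins of Loxl1 (-0.49), Mcf2l (-0.12) and Ptprg (-0.12) reversed. Scaling to spike-in controls moved the median difference of members on OVA+Alum to 2.09 above PBS and 1.14 above AEPS, AEPS minus PBS to 0.92, OVA minus PBS to 0.67 and OVA+AEPS minus AEPS to -0.41. It moved the list medians to -1.59 for inflammatory cytokines, -0.22 for neutrophil and 0.17 for mesothelial genes, and left OVA second for 29 members. Normexp moved the medians on OVA+Alum to 1.31 above PBS, 1.13 above AEPS and 1.27 above OVA+AEPS. The causes were not tested. Gene names from another column were not run, since it holds the same entries. No paired analysis was possible because each group has 1 array. Margins of dim probes are limited by their signal over background.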
